A study of Mus musculus with 11 samples.

Results

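Fatty acids reach the metabolic pathways of the liver through membrane transporters, cytosolic binding proteins and acyl-CoA synthetases, and 10 mouse genes of this system were followed here. They were the uptake genes Cd36, Slc27a2 and Slc27a4, the fatty acid binding protein genes Fabp1, Fabp2, Fabp4 and Fabp5, the long-chain acyl-CoA synthetase genes Acsl1 and Acsl5, and Pparg, which encodes a fatty acid-activated nuclear receptor. The genes are set by name, by a rule that uses their role and no measured value, although the choice was made with earlier results of these data known. They are 10 of the 36788 gene identifiers measured. All 10 were found, and all 10 passed the filter on low values described below.

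RNA was sequenced from livers of female wild-type C57BL/6 mice older than 12 weeks. All animals were ovariectomized (OVX) and given a high-fat diet (HFD), so both groups lacked ovaries and neither is an intact or lean control. After 1 week of recovery, 5 mice (numbered 1, 2, 3, 4 and 6) received follicle-stimulating hormone (FSH, 30 IU/kg injected daily into the abdomen) and 6 mice (numbered 1 to 6) received saline. Whole liver was digested with papain before RNA extraction, so each library holds RNA of hepatocytes together with that of other liver cells, and the study's methods describe a mixed background, in part C57BL/6J, for its mouse lines. The comparison asks which genes of fatty acid handling differ in the liver when FSH is given without ovaries.

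Long-chain fatty acids in blood are carried by albumin or released from lipoprotein triglycerides, cross the hepatocyte membrane with the help of CD36 and the fatty acid transport proteins (the SLC27 family), and are trapped in the cell once an acyl-CoA synthetase has joined them to coenzyme A. Fatty acid binding proteins (FABPs) are small proteins that hold fatty acids in the aqueous cytosol and carry them between membranes, droplets, mitochondria and the nucleus. L-FABP (Fabp1) is the form typical of hepatocytes, I-FABP (Fabp2) of the small intestine, A-FABP (Fabp4) of adipocytes, macrophages and some endothelium, and E-FABP (Fabp5) of skin, macrophages and many other cells. PPARgamma (Pparg) pairs with an RXR receptor on repeated AGGTCA elements and is known in fatty liver as an activator of lipid storage genes, Cd36 among them.

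Levels are given as CPM, reads counted on a gene per 1000000 reads of its library. The values came out as whole reads for 100% of the table (tolerance 0.05 reads), with between 10801891 and 19909327 reads per library. Fold changes are log2 differences of CPM + 0.5, FSH minus saline, from limma fitted over the 12733 genes whose mean over all libraries was 0.5 CPM or more, with Benjamini-Hochberg adjusted p-values over all of them. The replicates are separate mice, and no pair of libraries of a group differed by as little as counting noise would give (lowest mean chi-square per gene 11.35). Hepatocyte markers (Alb, Apoa1, Ttr, Cps1, Ass1, Hnf4a, Cyp2e1 and Tat) were high in every library, with a summed level of 101530 to 119130 CPM in FSH and 96553 to 120890 CPM in saline livers, although limma called 1 of the 8 higher (Ass1) and 1 lower (Hnf4a), where 6.19% of all genes tested were called higher and 4.41% lower. Without the filter on low values 0 of the 8 were called, and 4.92% of all genes. The call of Hnf4a was also lost without the trend, without FSH mouse 1, 2, 3 or 4, and without saline mouse 2, 4 or 6. The clock output gene Dbp was between 42.6 and 121 CPM in FSH livers and between 3.404 and 4.95 CPM in saline livers, and the clock gene Arntl fell by 2.33 on the log2 scale (adjusted p = 1.14e-05 in limma). Clock genes follow the hour of the day, so differences in collection time and differences due to treatment cannot be told apart in the values that follow.

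Of the 10 genes, 4 passed an adjusted p of 0.05 in limma's fit, where 10.6% of all genes tested did. Fabp5 and Acsl5 rose (6.19% of all genes tested rose), and Cd36 and Fabp4 fell (4.41% fell). Fabp5 was the one gene of the 10 that also passed the fold threshold of the study's methods, an absolute log2 fold change over 1. Over all genes tested, 1.83% passed both thresholds, 0.887% upward and 0.942% downward. Fabp5 was also the one gene of the 10 whose FSH and saline values did not overlap, as was the case for 6.67% of all genes tested (3.95% higher and 2.72% lower in FSH). The median log2 fold change of the 10 genes was 0.16, against 0.02 over all genes tested, with 6 values above and 4 below 0. It was 0.06 without FSH mouse 2 and 0.07 without saline mouse 4. The values by liver are shown in the plot of CPM for the 10 genes.

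**Figure D1:**
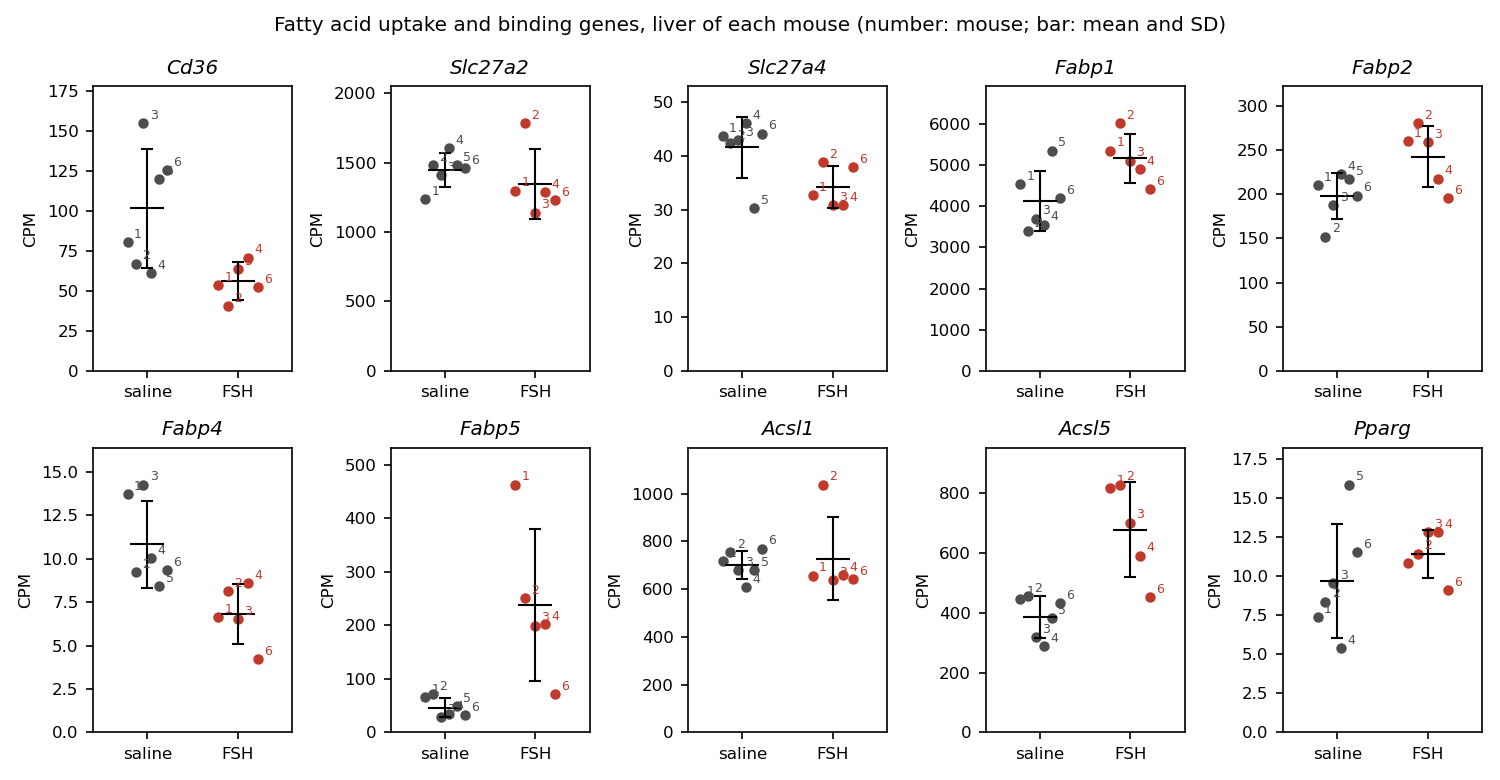
CPM (linear axes from 0, 1 panel per gene) of the 10 genes in each liver, with the mouse number beside each point and bars for mean and SD (6 saline and 5 FSH livers). Only in the panel of Fabp5 do the groups separate fully, with FSH livers between 71.8 and 462.45 CPM and saline livers between 28.7 and 71.2 CPM. Cd36 and Fabp4 lie lower and Acsl5 higher in the FSH group, with some overlap.

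Among the uptake genes, Cd36 was lower in FSH livers and the SLC27 transporters did not pass the adjusted test. Cd36 (ENSMUSG00000002944, GRCm38 chr5:17781690-17888801, minus strand) encodes a scavenger receptor that binds long-chain fatty acids and oxidized lipoproteins at the surface of hepatocytes, macrophages and endothelial cells. It was measured at 53.6, 40.3, 63.7, 70.8 and 52.2 CPM in FSH mice 1, 2, 3, 4 and 6. In saline mice 1 to 6 it was measured at 80.7, 67.1, 155, 61.4, 119.9 and 125.6 CPM. All 5 FSH livers lay below the saline mean and 3 lay below every saline liver, while saline mice 2 and 4 lay within the FSH range. The saline group was the more scattered, with 3 livers at 119.9 CPM or more and 3 at 80.7 CPM or less. The means were 56.1 ± 11.6 CPM (SD, n = 5) in FSH and 101.6 ± 37.4 CPM (SD, n = 6) in saline livers, a ratio of 0.553. On the log2 scale Cd36 fell by 0.79 (SE 0.22, 95% interval -1.27 to -0.32, adjusted p = 0.0346 in limma, exact permutation p = 0.0346, two-sided, over all divisions of the livers into 5 and 6). The call was lost without FSH mouse 1, 2, 3 or 6, or without saline mouse 3, 5 or 6. In those fits the adjusted p lay between 0.0529 and 0.0838, with log2 fold changes between -0.84 and -0.65.

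The promoter of Cd36 is shown because this gene is a known PPARgamma target and because its window was one of the few among these genes that held a match to the PPAR element. Promoters, 250 bases before to 50 bases after a RefSeq start, were available for 8 of the 10 genes (not Fabp4 and Fabp5). Each was searched on both strands for a pair of AGGTCA repeats with 1 base between them, at most 2 mismatches being allowed. Of all 32851 promoters, 3.86% held such a match. The windows of Cd36 (2 mismatches, starting 63 bases before the RefSeq start) and Fabp1 (1 mismatch, 67 bases before the start) held one, both on the strand opposite to the gene, and those of Slc27a2, Slc27a4, Fabp2, Acsl1, Acsl5 and Pparg held none. No window of the 8 held CACGTG, the E-box read by clock factors (7.15% of all promoters), or TTATGTAA, the element read by DBP (0.938%). These are letter matches and not binding sites. The RefSeq start used for Cd36 lies inside the annotated gene, which has 6 annotated transcripts, and not at its outer end. The 250 bases before this start of Cd36 (RefSeq, GRCm38.p6, chr5:17835897-17836146, minus strand), 5′ to 3′ along the gene with the matched bases in capitals, read as follows.
Cd36: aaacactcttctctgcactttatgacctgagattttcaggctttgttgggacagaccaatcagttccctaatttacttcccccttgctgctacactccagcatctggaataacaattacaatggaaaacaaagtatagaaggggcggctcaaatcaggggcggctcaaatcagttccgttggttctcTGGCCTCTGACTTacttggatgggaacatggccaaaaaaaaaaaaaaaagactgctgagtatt

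The other uptake genes did not pass the adjusted test. Slc27a2 (ENSMUSG00000027359, GRCm38 chr2:126552407-126588243, plus strand) encodes FATP2, a transporter and very long-chain acyl-CoA synthetase of hepatocytes. Its CPM were 1298, 1784, 1139.6, 1286 and 1228 in FSH mice 1, 2, 3, 4 and 6, and from 1235 to 1603 with a median of 1472 in saline livers. FSH mouse 2 was the highest of all 11 livers and FSH mice 3 and 6 were the lowest, so the FSH group spanned the whole saline range. Its log2 fold change was -0.12 (SE 0.11, 95% interval -0.36 to 0.13, adjusted p = 0.583 in limma, exact permutation p = 0.409), and it was -0.22 without FSH mouse 2 (adjusted p = 0.160 in limma) and -0.06 without FSH mouse 3. Slc27a4 (ENSMUSG00000059316, GRCm38 chr2:29802634-29817522, plus strand) encodes FATP4, a transporter found on internal membranes in many tissues. It was measured at 32.6, 38.9, 30.9, 30.9 and 37.9 CPM in FSH mice 1, 2, 3, 4 and 6. Saline livers had 43.8, 42.3, 43.0, 46.1, 30.4 and 44.2 CPM. Saline mice 1, 2, 3, 4 and 6 lay above every FSH liver and saline mouse 5 lay below every one. With a log2 fold change of -0.27 (SE 0.11, 95% interval -0.51 to -0.03, adjusted p = 0.145 in limma, exact permutation p = 0.0455), Slc27a4 did not pass over all genes. Without saline mouse 5, its log2 fold change was -0.36 with an adjusted p of 0.0222. With array weights on all livers it was -0.32 with an adjusted p of 0.0434 in limma.

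The 4 FABP genes did not move in 1 direction. Fabp5 rose most of all 10 genes, Fabp4 fell, and the abundant Fabp1 and Fabp2 did not pass the adjusted test. Fabp5 (ENSMUSG00000027533, GRCm38 chr3:10012548-10016607, plus strand) was measured at 462.45, 251, 199.5, 202 and 71.8 CPM in FSH mice 1, 2, 3, 4 and 6. The saline values were 65.5, 71.2, 28.7, 33.5, 48.4 and 31.7 CPM. Every FSH liver lay above every saline liver, but FSH mouse 6 (71.8 CPM) exceeded saline mouse 2 (71.2 CPM) by less than 1 CPM, and FSH mouse 1 was 6.44 times FSH mouse 6. The means were 237 ± 142 CPM (SD, n = 5) and 46.5 ± 18.3 CPM (SD, n = 6), a ratio of 5.11. Fabp5 rose by 2.20 on the log2 scale (SE 0.37, 95% interval 1.41 to 2.98, adjusted p = 0.00162 in limma), and the exact permutation p of 0.00216 is the smallest that 5 against 6 livers can give. Leaving out any 1 liver left the log2 fold change between 1.90 and 2.57 and the adjusted p at 0.00591 or less. Between 328 and 9207 reads per library stood behind these values, and the pseudogene Fabp5l2 was at 0.0761 CPM or less in every library.

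Fabp4 (ENSMUSG00000062515, GRCm38 chr3:10204088-10208576, minus strand) had, with Pparg, the lowest CPM of the 10 genes. It was measured at 6.63, 8.11, 6.51, 8.59 and 4.21 CPM in FSH mice 1, 2, 3, 4 and 6, against 13.7, 9.24, 14.3, 10.04, 8.42 and 9.33 CPM in saline mice 1 to 6. The groups overlapped only through FSH mouse 4 and saline mouse 5, and 4 FSH livers lay below every saline liver. The means were 6.81 ± 1.72 CPM (SD, n = 5) and 10.8 ± 2.50 CPM (SD, n = 6). On the log2 scale Fabp4 fell by 0.64 (SE 0.18, 95% interval -1.02 to -0.26, adjusted p = 0.0342 in limma, exact permutation p = 0.00649). Only 48 to 165 reads per library were counted, and the call was lost without FSH mouse 1, 3 or 6, or saline mouse 1 or 3, at adjusted p-values of 0.0591 to 0.0755 and log2 fold changes between -0.64 and -0.49.

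Cd36 and Fabp4 are also expressed by macrophages and endothelial cells, and the markers of both are therefore given beside them. Of the 11 macrophage markers listed (Clec4f, Adgre1, Cd68, Csf1r, Marco, Vsig4, Timd4, C1qa, C1qb, C1qc and Cd5l), all 11 had log2 fold changes below 0 and 1 fell, Cd68 (-0.78, adjusted p = 0.0118 in limma), where 4.41% of all genes tested fell. At an unadjusted p under 0.05 the markers lower in FSH livers numbered 7 of the 11, against 10.5% of all genes. By edgeR 1 marker was called lower (5.39% of all genes) and by DESeq2 4 (6.62%). Without FSH mouse 4, the liver with the highest summed level of its group, limma called 7 lower, against 3.57% of all genes. Their summed level was 182 to 475 CPM (median 339) in FSH and 313 to 550.4 CPM (median 506) in saline livers (exact permutation p = 0.0519). Of 10 endothelial markers, 8 were below 0 and 1 fell, Lyve1 (-0.63, adjusted p = 0.0121 in limma), again where 4.41% of all genes tested fell. Leaving out FSH mouse 4 gave 9 below 0 and 2 called lower, against 3.57% of all genes. Their summed level was 181 to 267 CPM against 211 to 245 CPM (exact permutation p = 0.216). Of 7 adipocyte markers, Lep and Retn had no read in any library, Adipoq was at 0.0926 CPM or less, and the 2 that could be tested (Lipe and Adrb3) did not pass. With array weights 1 of the 2 was called higher (8.67% of all genes), and likewise 1 without FSH mouse 6 (8.16%). At an unadjusted p under 0.05, 1 of the 2 was higher, against 14.6% of all genes. The sum of the 7 was 13.1 to 21.9 CPM in FSH and 10.3 to 18.1 CPM in saline livers (exact permutation p = 0.0779). The part of these cells in the values of Cd36 and Fabp4 was not tested, and in bulk RNA fewer cells of a type and less RNA per cell cannot be told apart.

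Fabp1 (ENSMUSG00000054422, GRCm38 chr6:71199827-71205023, plus strand) encodes the main cytosolic fatty acid carrier of hepatocytes. It was measured at 5348, 6014, 5107, 4891 and 4422 CPM in FSH mice 1, 2, 3, 4 and 6, and at 4543, 3397, 3698, 3551, 5349 and 4202 CPM in saline mice 1 to 6. All 5 FSH livers lay above the saline mean, yet saline mouse 5 was the second highest of the 11 livers. For Fabp1 the log2 fold change was 0.33 (SE 0.13, 95% interval 0.06 to 0.61, adjusted p = 0.117 in limma, exact permutation p = 0.0411). Without saline mouse 5, it was 0.41 with an adjusted p of 0.0422. The Fabp1 promoter held the closer of the matches to the PPAR element. Its window up to the annotated first exon (198 bases, RefSeq, GRCm38.p6, chr6:71199629-71199826, plus strand), with the matched bases in capitals, is given here.
Fabp1: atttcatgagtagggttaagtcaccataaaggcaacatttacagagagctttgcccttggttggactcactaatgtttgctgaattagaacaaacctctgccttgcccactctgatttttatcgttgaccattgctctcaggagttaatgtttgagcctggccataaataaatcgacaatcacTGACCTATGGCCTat

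Fabp2 (ENSMUSG00000023057, GRCm38 chr3:122895072-122899506, plus strand), best known from enterocytes, was readily measured in every liver. FSH mice 1, 2, 3, 4 and 6 had 260.2, 280.5, 259, 218 and 196 CPM, and saline livers had 152 to 223 CPM with a median of 204. FSH mice 1, 2 and 3 lay above every saline liver and FSH mouse 6 below the saline mean. Fabp2 thus stood at 0.29 on the log2 scale (SE 0.12, 95% interval 0.04 to 0.54, adjusted p = 0.127 in limma, exact permutation p = 0.0433), and at 0.36 with an adjusted p of 0.0494 without FSH mouse 6. Of 8 intestinal epithelium markers (Vil1, Cdh17, Lct, Sis, Alpi, Cdx1, Cdx2 and Muc2), 5 had no read in any library and the sum of all 8 was at most 0.613 CPM. The plot of fold changes places Fabp1 and Fabp2 beside each other, with intervals that leave out 0 but adjusted p-values above 0.05.

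**Figure D2:**
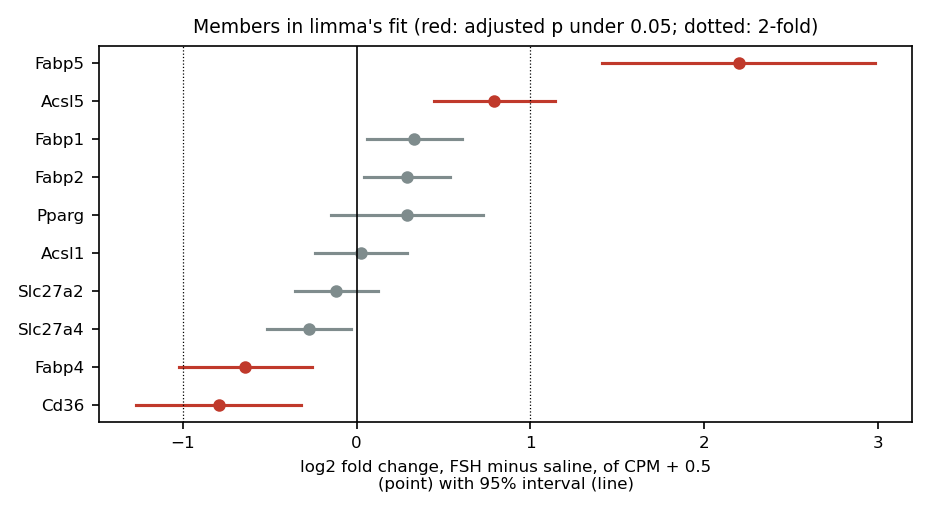
Log2 fold change (FSH minus saline, of CPM + 0.5) of each of the 10 genes with its 95% interval from limma; red marks an adjusted p under 0.05, the solid line no difference and the dotted lines 2-fold. Fabp5 at 2.20 stands apart from the other genes, whose estimates lie between -0.79 and 0.79.

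Acyl-CoA synthetases activate fatty acids for either oxidation or esterification, and of those followed here Acsl5 rose and Acsl1 did not pass the test. Acsl5 (ENSMUSG00000024981, GRCm38 chr19:55251938-55297720, plus strand), found on mitochondria and endoplasmic reticulum and regulated with lipogenic genes, was measured at 817, 828, 701, 591 and 451 CPM in FSH mice 1, 2, 3, 4 and 6. Saline livers had 446, 456, 319, 289, 381 and 432 CPM. FSH mice 1 to 4 lay above every saline liver, and FSH mouse 6 lay within the saline range, just below saline mouse 2. The means were 678 ± 159 CPM (SD, n = 5) and 387 ± 69.9 CPM (SD, n = 6), a ratio of 1.75. Acsl5 rose by 0.79 on the log2 scale (SE 0.16, 95% interval 0.44 to 1.14, adjusted p = 0.00611 in limma, exact permutation p = 0.00433), and the call held without any 1 liver (0.71 to 0.93, adjusted p at most 0.0232). Zdhhc6, which overlaps Acsl5 on the other strand, had 52.0 to 62.4 CPM, and whether the counting used strand is not given in the sources used here.

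The promoter of Acsl5, a called gene whose window held none of the motifs searched, is shown beside those of Cd36 and Fabp1 (RefSeq, GRCm38.p6, chr19:55253119-55253368, plus strand, 250 bases before the start, no capitals since no match). Like that of Cd36, this window lies inside the annotated gene, which has 6 annotated transcripts.
Acsl5: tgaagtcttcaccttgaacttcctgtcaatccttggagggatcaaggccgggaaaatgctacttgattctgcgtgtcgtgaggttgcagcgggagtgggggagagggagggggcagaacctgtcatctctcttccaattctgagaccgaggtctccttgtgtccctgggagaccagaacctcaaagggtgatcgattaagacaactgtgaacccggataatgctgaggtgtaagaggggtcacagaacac

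Acsl1 (ENSMUSG00000018796, GRCm38 chr8:46471037-46536051, plus strand), the synthetase that accounts for much of long-chain acyl-CoA formation in liver, was measured at 657, 1038, 639.6, 657 and 642 CPM in FSH mice 1, 2, 3, 4 and 6 and between 609 and 769.9 CPM (median 699) in saline livers. All FSH livers but mouse 2 lay within the saline range. The log2 fold change was 0.03 (SE 0.12, 95% interval -0.24 to 0.29, adjusted p = 0.927 in limma, exact permutation p = 0.894), and it turned to -0.11 without FSH mouse 2 (adjusted p = 0.482) and to -0.014 without saline mouse 4.

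Pparg (ENSMUSG00000000440, GRCm38 chr6:115360951-115490399, plus strand) was low in all livers. FSH mice 1, 2, 3, 4 and 6 had 10.8, 11.4, 12.8, 12.8 and 9.11 CPM, and saline mice 1 to 6 had 7.39, 8.36, 9.53, 5.40, 15.8 and 11.5 CPM. Saline mouse 5 was the highest and saline mouse 4 the lowest of the 11, so the saline group enclosed the FSH group. The log2 fold change was 0.29 (SE 0.21, 95% interval -0.15 to 0.73, adjusted p = 0.422 in limma, exact permutation p = 0.359), an interval that still admits a rise of more than 1.5-fold. It was 0.15 without saline mouse 4 and 0.44 without saline mouse 5. Between 71 and 226 reads per library were counted.

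Levels can be compared between genes only per length of transcript, and were expressed as CPM per kb of all annotated exons (GENCODE M21, GRCm38). In saline livers the mean was 7457 CPM per kb for Fabp1, 385 for Slc27a2, 205 for Fabp2, 79.6 for Acsl5, 67.0 for Acsl1, 28.3 for Cd36, 13.0 for Fabp5, 9.43 for Slc27a4, 3.27 for Pparg and 2.41 for Fabp4. Fabp1 thus exceeded every other gene of the 10 by more than an order of magnitude. Neighbours in this order whose ranges over saline livers overlapped were Acsl5 and Acsl1, Cd36 and Fabp5, Fabp5 and Slc27a4, and Pparg and Fabp4. In FSH livers Fabp5 reached a mean of 66.6 CPM per kb, and its range of 20.1 to 129.7 CPM per kb lay above the 11.2 to 19.7 CPM per kb of Cd36. The order rests on the length chosen: with the length of the principal transcript, an alternative added after the data had been seen, saline means were 180 for Acsl1, 91.3 for Acsl5, 47.1 for Fabp5, 29.9 for Cd36 and 12.1 for Fabp4. The plot of levels per length shows both scales.

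**Figure D3:**
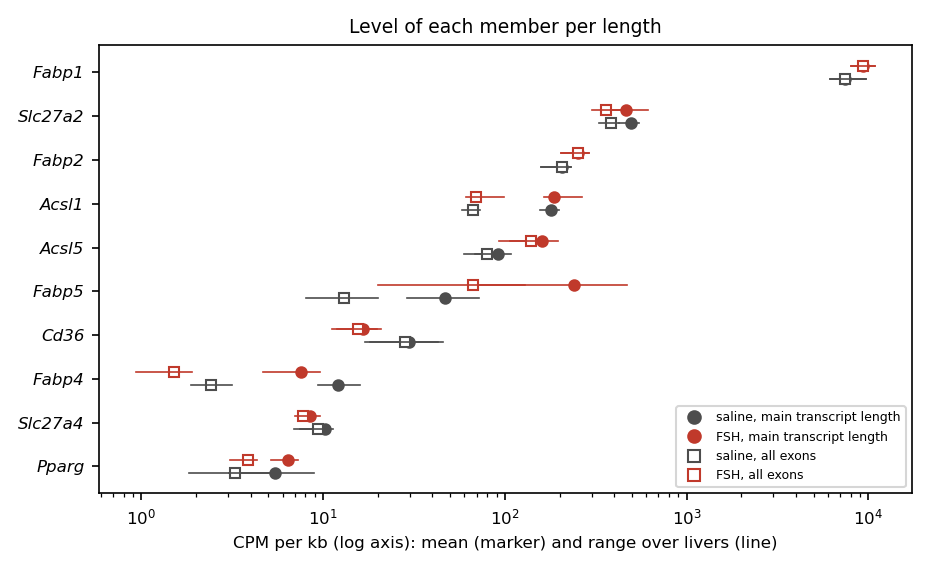
CPM per kb (log axis) of the 10 genes, as mean (marker) and range (line) over 6 saline and 5 FSH livers; filled circles use the principal transcript's length and open squares all exons. Fabp1 lies far to the right at 7457 CPM per kb in saline livers, and Fabp4, Fabp5 and Acsl1 shift most between the scales.

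The 4 FABP genes were also set against their own sum in each liver. With the length of all annotated exons, Fabp1 made up 96.02% to 97.27% of it in FSH livers and 96.35% to 97.58% in saline livers. The share of Fabp5 was 0.245% to 1.29% in FSH and 0.114% to 0.316% in saline livers, and that of Fabp2 was 2.47% to 2.81% against 2.27% to 3.47%. The share of Fabp5 rests on the length chosen, being 0.879% to 4.50% in FSH and 0.410% to 1.13% in saline livers with the length of the principal transcript, where Fabp1 made up 92.8% to 96.6% and 95.9% to 97.2%. On both scales Fabp5 remained a minor transcript beside Fabp1 in every liver.

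Livers of 1 group also differed from each other, and the pair of genes that varied most alike was Fabp5 and Acsl5. After each group's mean was subtracted, log2 values of Fabp5 and Acsl5 had a Pearson r of 0.828 over the 11 livers (exact permutation p = 0.00513, with livers exchanged within groups) and a Spearman rho of 0.745 on ranks within groups (exact permutation p = 0.0223). This was the highest r of 45 pairs among the 10 genes, and after Benjamini-Hochberg adjustment over the 45 neither value passed (0.183 and 0.698). Without FSH mice 1 and 6, which lay farthest from the median of Fabp5, r was 0.680 (exact permutation p = 0.0847), and within the saline group r was 0.699. The other pairs with r above 0.65 in absolute value were Slc27a4 and Pparg (-0.755), Cd36 and Pparg (0.683), Slc27a2 and Acsl1 (0.682) and Fabp1 and Fabp2 (0.677), and no pair passed the adjustment. For Slc27a2 and Acsl1, r was -0.387 without FSH mice 2 and 3, which were left out only together.

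**Figure D4:**
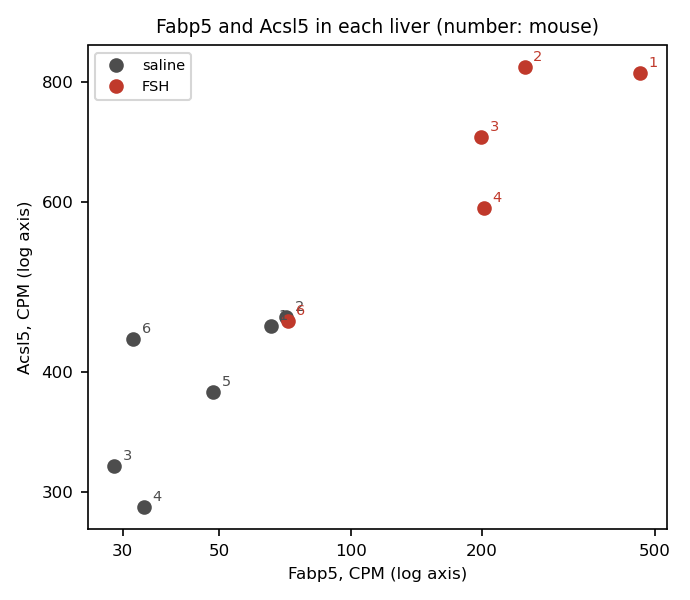
CPM of Fabp5 (horizontal) and Acsl5 (vertical) in each of the 11 livers, both on log axes, with mouse numbers. FSH mice 1 to 4 lie at upper right, and FSH mouse 6 (71.8 and 451 CPM) lies beside saline mice 1 and 2.

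Over all genes tested, the named genes whose variation within groups was most like that of Fabp5 were Pdzk1ip1 (r = 0.948), G6pdx (0.943) and Pla2g4f (0.927) over the 11 livers, and all of these were higher in FSH livers too (log2 fold changes 1.68, 1.10 and 1.30, adjusted p 0.000326, 0.0282 and 0.0133 in limma). Pla2g4f averaged 1.17 CPM in FSH and 0.117 CPM in saline livers, so its values in saline livers rest on very few reads. G6pdx encodes glucose-6-phosphate dehydrogenase, a source of NADPH for fatty acid synthesis. The genes most like Acsl5 were Sae1 (0.952), Pgrmc2 (0.934) and Arsg (0.934), and those most like Fabp4 were Zfp446 (0.935), Heatr1 (0.916) and Arhgap31 (0.908). Of the latter 6, Pgrmc2 differed between groups (0.41, adjusted p = 0.0282) and the others did not pass.

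Other genes of the same steps were taken from lists written for this comparison. Among 16 further uptake genes (transporters, lipases and caveolins), 12 were tested, 1 rose and 1 fell, where 6.19% of all genes tested rose and 4.41% fell. Cav1, which encodes the coat protein of caveolae, rose by 0.81 (adjusted p = 0.0397 in limma) from 2.96 ± 1.10 CPM (SD, n = 6) to 5.59 ± 2.06 CPM (SD, n = 5). Lipc, the hepatic lipase gene, fell by 0.29 (adjusted p = 0.0326). Both calls were lost without some single livers, at adjusted p-values up to 0.102. Cav1 lost its call without FSH mouse 2 or 4 or saline mouse 1, 3, 4 or 6, and Lipc without FSH mouse 1, 2, 3 or 4 or saline mouse 1, 2, 3 or 4. Lipg, the endothelial lipase gene, had the third smallest p (0.89, adjusted p = 0.212 in limma), with values of 0.52 without saline mouse 5 and 1.20 without saline mouse 2. Without the filter on low values Cav1 was not called (adjusted p = 0.0864), nor was Lipc without the trend (0.0579). The median log2 fold change of the 12 was 0.03, and -0.04 to 0.08 over the alternatives tried. Among them was Slc27a5, the bile acid and fatty acid ligase of hepatocytes, at 1041 and 1065 CPM.

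Among 14 further binding protein genes 7 were tested, 2 rose and 0 fell in limma, against the 6.19% and 4.41% of all genes tested. The count of those lower was 1 at an unadjusted p under 0.05 (10.5% of all genes), and 0 were called lower by edgeR and DESeq2 (5.39% and 6.62% of all genes). Dbi, which encodes the acyl-CoA binding protein that carries the products of the synthetases, rose by 0.49 (adjusted p = 0.0243 in limma) from 876 ± 151 to 1226 ± 173 CPM (SD). Acbd5, a peroxisomal acyl-CoA binding protein gene, rose by 0.40 (adjusted p = 0.0419). Without FSH mouse 1, 3 or 4 or saline mouse 3, Dbi lay at adjusted p-values of 0.0522 to 0.0694. Without FSH mouse 1, 2, 3 or 4 or saline mouse 1, 3 or 4, Acbd5 lay at 0.0778 to 0.104. Neither gene was called without the filter on low values (adjusted p = 0.0564 for Dbi and 0.0708 for Acbd5), nor Acbd5 without the trend (0.0671). Acbd3 did not pass (-0.21, adjusted p = 0.159). The median of the 7 was -0.10, and -0.17 to -0.01 over the alternatives tried.

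Of 13 further acyl-CoA synthetase genes 9 were tested, and 3 rose in limma, as did 6.19% of all genes tested. Lower values passed for 0 genes in limma, edgeR and DESeq2 (4.41%, 5.39% and 6.62% of all genes), and for 0 at an unadjusted p under 0.05 (10.5%). Acss2 encodes the cytosolic enzyme that makes acetyl-CoA from acetate. It was measured at 1085, 924, 717, 705 and 389.7 CPM in FSH mice 1, 2, 3, 4 and 6 and at 94.4 to 291 CPM in saline livers, with no overlap, and rose by 2.19 (SE 0.27, adjusted p = 0.000153 in limma). Acsl3, a synthetase of lipid droplets and endoplasmic reticulum, had 83.4, 77.4, 77.9, 61.2 and 40.2 CPM against 12.6 to 42.1 CPM and rose by 1.07 (SE 0.27, adjusted p = 0.0210). Acsl4, which prefers arachidonic acid and is named here after its values were seen, had 79.7, 87.3, 72.6, 68.5 and 43.0 CPM against 28.5 to 48.3 CPM and rose by 0.73 (SE 0.17, adjusted p = 0.0134). In each of these, as in Fabp5 and Acsl5, FSH mouse 6 was the lowest of the FSH livers. Acsl3 lost its call without FSH mouse 1 or 3 (adjusted p = 0.0635 and 0.0570). Its log2 fold change was below 1 without FSH mouse 1 (0.99) and without saline mouse 4 (0.82), the lowest saline liver. The remaining 6 (Acsm1, Acsm3, Acsm5, Acss3, Acsf2 and Acsf3) had log2 fold changes from -0.26 to 0.03 and did not pass, and the median of all 9 was 0.02, moving between -0.03 and 0.06 over the alternatives tried. These values are shown in the plot of the other pathway genes.

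**Figure D5:**
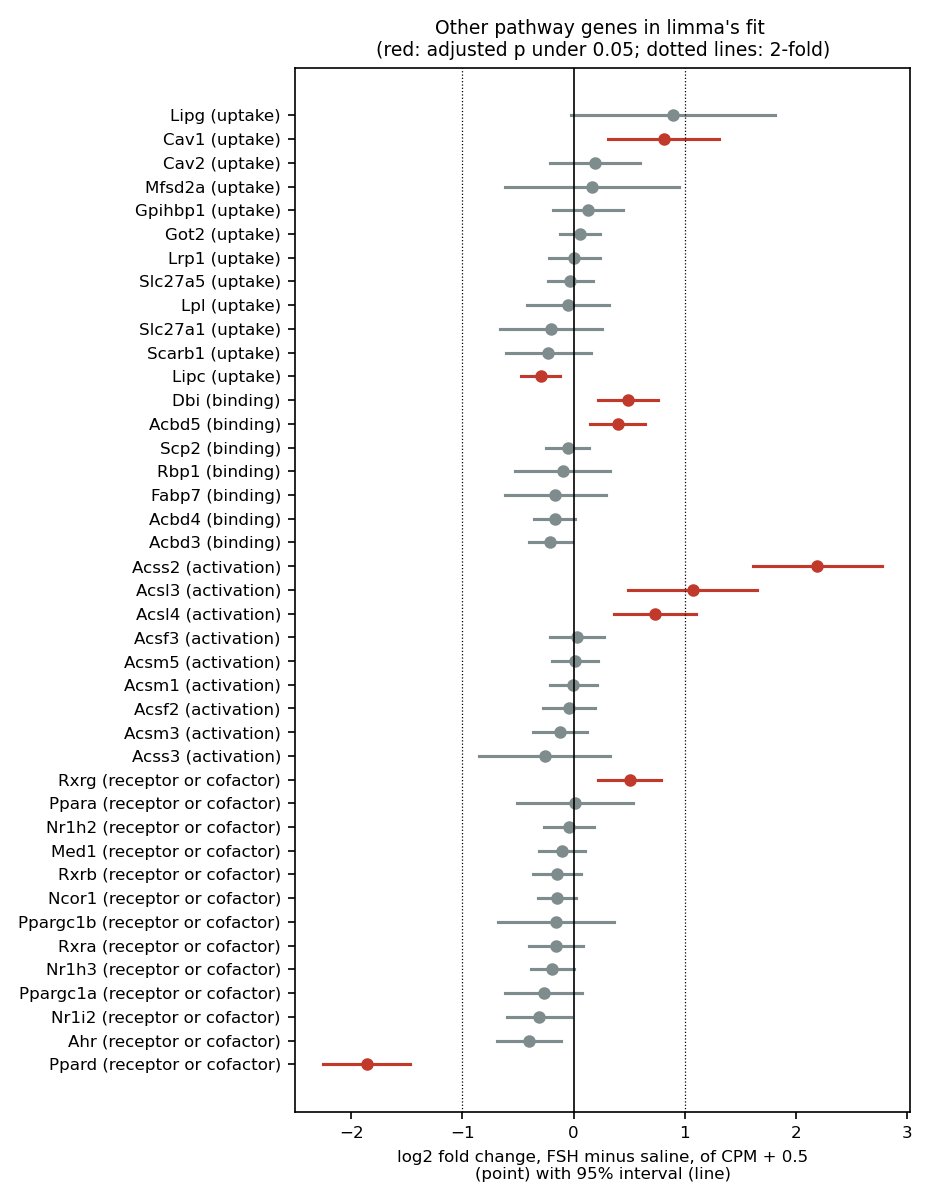
Log2 fold change (FSH minus saline, of CPM + 0.5) with 95% interval from limma for the tested genes of the uptake, binding, activation and receptor lists; red marks an adjusted p under 0.05 and dotted lines 2-fold. Acss2 at 2.19, Acsl3 at 1.07 and Ppard at -1.86 lie beyond the dotted lines among the called genes.

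Of 13 receptors and cofactors that act with or beside PPARgamma, all 13 were tested, 1 rose and 1 fell, with 6.19% and 4.41% of all genes tested doing so. At an unadjusted p under 0.05 the receptor genes lower in FSH livers numbered 3 of the 13, against 10.5% of all genes. Both edgeR and DESeq2 called 2 lower (5.39% and 6.62% of all genes), as limma did without FSH mouse 6 (4.87%) or saline mouse 5 (4.45%). Ppard, which encodes PPARdelta, a fatty acid receptor tied to oxidation, was measured at 5.22, 7.30, 4.70, 7.82 and 5.70 CPM in FSH mice 1, 2, 3, 4 and 6 and at 31.9, 32.2, 21.9, 15.8, 20.3 and 21.8 CPM in saline mice 1 to 6. The groups did not overlap, and Ppard fell by 1.86 on the log2 scale (SE 0.18, adjusted p = 2.08e-05 in limma). Rxrg, a partner receptor gene named after its values were seen, rose by 0.50 (adjusted p = 0.0267), and its call was lost without FSH mouse 1 or 3 (adjusted p = 0.0837 and 0.0755) or without the filter on low values (0.0541). Ppara, the main fatty acid receptor of hepatocytes, differed by 0.01 (SE 0.24, adjusted p = 0.982), and Ahr had the third smallest p (-0.40, adjusted p = 0.0727). The median over the 13 was -0.15, with 11 values below 0.

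Of 8 lipid storage genes known as PPARgamma targets in fatty liver or fat, 5 were tested, and 0 rose and 1 fell in limma (6.19% and 4.41% of all genes tested). At an unadjusted p under 0.05, 2 of the 5 were higher, against 14.6% of all genes, while edgeR called 0 higher and DESeq2 1 (5.88% and 7.04% of all genes). Without FSH mouse 6 limma called 2 higher (8.16%), and without FSH mouse 4 (4.01%) or saline mouse 6 (5.46%) it called 1. Plin4 belongs to the perilipins, which coat lipid droplets. It was measured at 0.603, 1.70, 1.59, 2.20 and 3.59 CPM in FSH mice 1, 2, 3, 4 and 6 and at 6.67 to 29.9 CPM in saline livers, and fell by 2.32 (SE 0.37, adjusted p = 0.00124 in limma) with no overlap. Vldlr, a lipoprotein receptor gene, stood at 0.79 (adjusted p = 0.0605) and Plin2, the main perilipin of hepatocytes, at 0.34 (adjusted p = 0.160). The median of the 5 was 0.17, but -0.15 without FSH mouse 2, 0.00017 without saline mouse 6 and 0.35 without FSH mouse 6.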

How the data were processed

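Liver RNA of 11 mice (5 FSH, 6 saline) was made into NEBNext Ultra libraries and sequenced in pairs on an Illumina instrument. The authors deposited 1 table of CPM values over 36788 Ensembl identifiers, not filtered and not scaled between libraries. The submitters' processing notes name FastQC, cutadapt, Trim Galore, STAR, RSEM and the build mm10; the annotation and the use of strand are not given in the sources used here. Symbols and positions came from GENCODE M21 (GRCm38), which named 35555 identifiers. All value columns were mapped to samples by name (0 left out). Reads recovered from the CPM steps gave the depth behind each value. A count of 0 allows up to 3 reads, a limit that covers counting error only.

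Log2(CPM + 0.5) of genes that averaged 0.5 CPM or more was tested with limma 3.58.1 in R 4.3.3 (eBayes with an intensity trend, Benjamini-Hochberg adjustment). Single values were tested with exact two-sided permutation tests over all divisions into 5 and 6 (scipy 1.17.1). The functions were tested on simulated data with 200 genes changed. The alternatives were other pseudocounts, filters, scalings and weights, no trend, a replicate block, leaving out each liver, and voom, edgeR 4.0.16 and DESeq2 1.42.0 on the recovered reads. The genes and lists were chosen with earlier results of these data known, and no list was tested as a set. Named were all 10 genes, those past both thresholds in each other list (where a list had none, as many as 3 by smallest p), and for each of the 3 genes with the smallest p the 3 genes most like it. Acsl4, Rxrg, Ppara, Ahr, Vldlr, Plin2, Slc27a5, Ass1 and Hnf4a were named after their values were seen. Promoters came from RefSeq (GRCm38.p6), and protein sequences were not used here.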

Additional observations from a re-analysis of the deposited data

Results flagged for a closer look

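Each of the 10 genes was searched in both groups (20 groups of livers) for a liver far from the rest of its group, by the gap to its nearest neighbour over the whole range of the group against Dixon's limit. Chance alone flags about 1 in 20 such groups, and 3 were found. Slc27a2 was at 1784 CPM in FSH mouse 2, the highest of 5, with a gap of 0.754 of the range against a limit of 0.71. Acsl1 was at 1038 CPM in the same mouse, again the highest of 5, with a gap of 0.956 against 0.71. Slc27a4 was at 30.4 CPM in saline mouse 5, the lowest of 6, with a gap of 0.760 against 0.625. FSH mouse 2 was also the highest of its group in Slc27a4, Fabp1, Fabp2 and Acsl5. The source of these values was not tested.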

How the results depend on the processing

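Fabp5 and Acsl5 were called under all 11 omissions of 1 liver and all 12 other alternatives. By edgeR and DESeq2, Cd36 and Fabp4 were called too, where 11.3% and 13.7% of all genes tested were called. With the fold threshold added, 311 and 304 of all genes passed, and 1 of the 10 genes by each. The number of the 10 genes with an adjusted p under 0.05 was 4 and fell to 2 without a filter on low values, where Cd36 and Fabp4 lost their calls (adjusted p = 0.0680 and 0.0690 in limma), as did Cav1 (0.0864), Dbi (0.0564), Acbd5 (0.0708) and Rxrg (0.0541). Of all genes 4.92% were then called, against 10.6%. With array weights the count was 5, Slc27a4 being added, where 14.9% of all genes were called. The count of the 10 lay between 2 and 5 when 1 liver was left out. It was 2 without FSH mouse 1, FSH mouse 3 or saline mouse 3, where 6.31%, 7.15% and 8.15% of all genes were called. Without the trend Cd36 (0.0538), Lipc (0.0579) and Acbd5 (0.0671) were lost, as was the hepatocyte marker Hnf4a. With a fold threshold of 1.5-fold in place of 2-fold, 4 of the 10 genes and 707 of all genes passed both thresholds, against 1 and 233. Acsl1 changed sign with TMM factors (-0.0013), median-of-ratios factors (-0.0014), array weights (-0.026), voom (-0.0011) and without 1 liver (range -0.11 to 0.065), never past the test, and the cause was not tested.

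The replicate numbers shared by the groups were checked for pairing. Deviations of same-numbered livers correlated at 0.0651, 0.356, 0.0193, 0.137 and -0.0662 for mice 1, 2, 3, 4 and 6. Only mouse 2 correlated best with its own number. With so few pairs this check cannot exclude that same-numbered livers were paired. The fit with the replicate block also leaves out saline mouse 5, which has no FSH liver of its number, so its values are set beside those without that mouse alone. The fold changes were the same (Slc27a4 -0.36, Fabp5 2.23). In each fit 5 of the 10 genes were called, where 9.52% of all genes were called with the block and 9.73% without it. Slc27a4 was called in both (adjusted p = 0.0449 with the block and 0.0222 without it, in limma). Past both thresholds were 251 and 243 of all genes, and 1 of the 10 genes in each. Fabp1 (0.0678 and 0.0422), Lipc (0.0517 and 0.0278) and Acbd5 (0.0575 and 0.0394) were called only without the block, and Cd36 only with it (0.0392 and 0.0660).

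Precision is limited by the number of livers. Reads were fewest for Fabp4 and Pparg (48 to 165 and 71 to 226 per library), and how far this limits their precision was not tested.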
